A study of Homo sapiens with 6 samples.

Results

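Imprinted genes are transcribed mainly from the copy inherited from 1 parent, and 10 of them were examined in U87MG and T98G, 2 established human glioblastoma cell lines. The genes were PLAGL1, MEST, PEG3, PEG10, CDKN1C, GRB10, NNAT, NDN, DLK1 and PHLDA2, of 11963 genes measured, and they were taken up by gene symbol, with every probe set that the platform annotation gives to one of them alone, 22 of the 22215 probe sets that are no controls. Each line had 3 Affymetrix arrays (U87MG replicates 1 to 3 and T98G replicates 1 to 3), both lines were grown in the same serum-containing medium, and the labels name no treatment, genetic change, or passage for either. The labels describe U87MG as resistant to apoptosis by the proteasome inhibitor bortezomib and by the isopeptidase inhibitor G5 yet killed by necrosis under G5, and T98G as killed by apoptosis under both and less sensitive to that necrosis. The comparison asked which of these transcripts differed between the lines before any such treatment. The differences between the lines were known when the 10 genes were chosen, so they are given as a description, with no p-value. The gene lists below were chosen with earlier results of these data known, so their shares and p-values are description too and no independent tests.

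At an imprinted locus, DNA methylation laid down in the egg or the sperm marks 1 parental copy, and the mark is kept through later cell divisions. Many imprinted genes act on growth before birth, and as a textbook rule those expressed from the paternal copy tend to promote growth and those expressed from the maternal copy tend to restrain it. Cultured tumour cells can lose or gain such marks. PLAGL1 encodes a zinc finger transcription factor, also called ZAC, that arrests the cell cycle and promotes apoptosis, and in the mouse it acts on a network of other imprinted genes. Methylation and allelic expression were not measured here, so the values below are total transcript levels, and in such bulk RNA fewer expressing cells and less RNA per cell cannot be told apart.

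For the 3 genes with the largest differences, PLAGL1, NDN and MEST, the 250 bases before a transcription start are shown because parental methylation falls on CG dinucleotides, which are in capitals. They are from RefSeq (GRCh38.p14), 5′ to 3′ along the gene, and for each gene the start with the most CG dinucleotides was taken, with ties settled by GC content.
PLAGL1: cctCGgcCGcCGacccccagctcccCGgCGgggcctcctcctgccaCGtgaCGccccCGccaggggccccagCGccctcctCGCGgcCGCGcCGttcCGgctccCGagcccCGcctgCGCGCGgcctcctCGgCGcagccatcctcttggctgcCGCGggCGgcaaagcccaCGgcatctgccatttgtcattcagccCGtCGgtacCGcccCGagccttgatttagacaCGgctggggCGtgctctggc
NDN: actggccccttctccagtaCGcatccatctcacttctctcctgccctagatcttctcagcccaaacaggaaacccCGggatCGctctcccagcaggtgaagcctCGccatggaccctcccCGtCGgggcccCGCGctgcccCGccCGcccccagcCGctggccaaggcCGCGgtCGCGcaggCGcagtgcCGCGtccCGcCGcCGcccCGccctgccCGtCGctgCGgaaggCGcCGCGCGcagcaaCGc
MEST: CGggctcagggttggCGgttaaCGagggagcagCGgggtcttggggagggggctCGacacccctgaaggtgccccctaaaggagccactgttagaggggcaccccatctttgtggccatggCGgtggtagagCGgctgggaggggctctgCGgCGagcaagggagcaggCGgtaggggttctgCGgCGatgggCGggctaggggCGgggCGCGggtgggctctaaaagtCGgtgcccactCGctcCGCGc
The PLAGL1 window (chr6:144008260-144008509, minus strand) holds 32 CG dinucleotides, more than 90.5% of the 35116 windows of this length in the RefSeq table, whose median is 11. It is also the window before the start of HYMAI, a non-coding RNA of the same locus, and the other 4 PLAGL1 starts in the table have 1 to 21. The NDN window (chr15:23687306-23687555, minus strand) holds 30 CG dinucleotides, and the MEST window (chr7:130491835-130492084, plus strand) holds 20. The letters TGCCGC, which ZFP57, a protein that keeps imprints, binds when they are methylated, were searched on both strands. They occur 2 times in the PLAGL1 window, 1 time in the NDN window and 0 times in the MEST window, and 12.7% of all windows hold them at least once. These are matches of letters and not binding sites. Of the 10 genes, 4 had windows in the table, the fourth being GRB10, whose windows have 2 to 40 CG dinucleotides. The probe sets do not tell the starts of a gene apart.

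Values are RMA log2 levels per probe set, and differences are U87MG minus T98G with their standard error (SE) from limma. This linear model draws the variance of each probe set toward a value common to all probe sets. A probe set was past the threshold when the Benjamini-Hochberg adjusted p over all 22215 probe sets was under 0.05 and the difference was at least 2-fold. By that measure 11 of the 22 probe sets were past it, 7 of them higher and 4 lower in U87MG, where 12.3% of all probe sets were past it (5.93% higher and 6.33% lower). The arrays of the lines did not overlap for 14 of the 22, against 49.1% of all probe sets. Nothing is read from these shares, since this contrast was known when the genes were chosen. By gene, taking the probe set with the highest mean, PLAGL1, NDN and GRB10 were past the threshold with U87MG higher, and MEST and CDKN1C with U87MG lower. The share of all 11963 genes past it was 13.6% (6.56% higher and 7.01% lower). The median difference was 0.10 over the 22 probe sets and -0.01 over all probe sets.

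**Figure D1:**
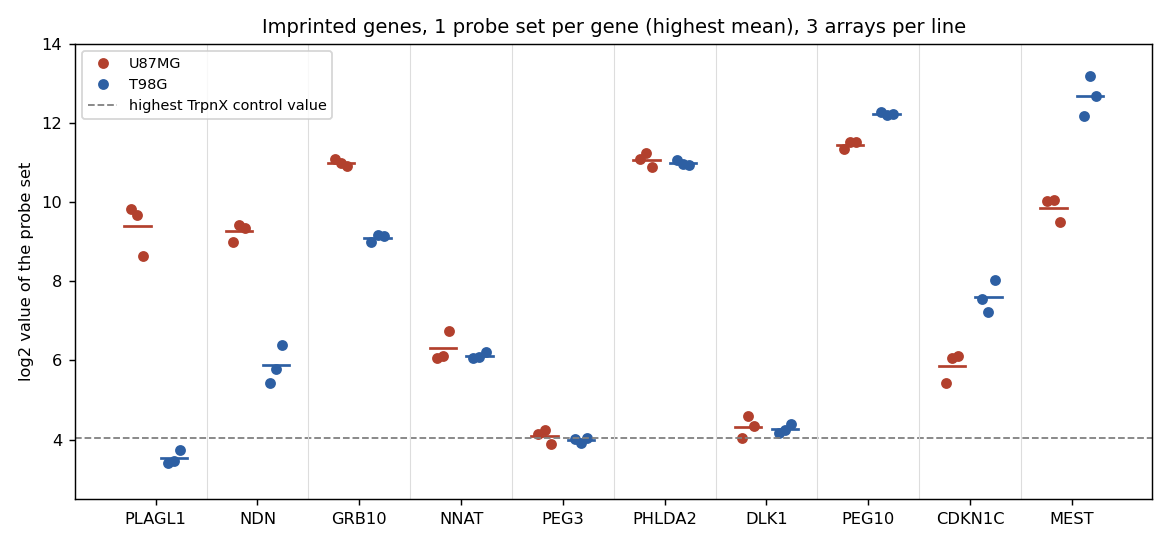
Log2 values of the probe set with the highest mean for each of the 10 genes, with 1 point per array, U87MG in red and T98G in blue, and lines at the means of 3 arrays. PLAGL1 and NDN separate the lines with U87MG higher, MEST separates them with U87MG lower, and PEG3 lies along the dashed line, the highest value of the TrpnX control probe sets (4.03).

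Within a line, the Pearson correlation between arrays was 0.990 to 0.997, against 0.934 to 0.939 between lines. Of 8 markers of glioblastoma lines, 1 was past the threshold, NES, the intermediate filament of neural progenitors, at 8.89 ± 0.24 in U87MG and 6.34 ± 0.20 in T98G (SD, n = 3 each, log2 2.55, limma adjusted p = 7.55e-07). CD44, on the same list, had -0.25 on its brightest probe set. Of its 8 probe sets (-1.45 to -0.23), 1 was past the threshold with U87MG lower. VIM, the intermediate filament of mesenchymal and glial cells, read 14.80 to 14.89 in U87MG and 14.54 to 14.64 in T98G. The astrocyte marker S100B stayed within 4.18 to 4.32 in U87MG and 4.04 to 4.32 in T98G, close to the control level of 4.03. GFAP, on the same list, lay above that level, at 6.49 to 6.56 in U87MG and 6.38 to 6.46 in T98G. Of the 9 measured markers of leukocytes, endothelium and epithelium, 0 were past the threshold by limma, although EPCAM passed without U87MG replicate 3 (1.05). Of 4 neuronal markers, 2 were higher in U87MG, GAD1 and SNAP25, while SYP and STMN2 had -0.17 and -0.25 and were not past the threshold. Over all genes 13.6% were past it, and nothing is read from the counts in these short marker lists. Poly-A controls averaged 5.30 in U87MG replicate 3 and 6.10 to 6.84 elsewhere. Whether replicates were separate cultures is not in the labels, so errors and p-values measure the spread between these arrays, which may be technical.

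PLAGL1 read far higher in U87MG than in T98G on all 3 of its probe sets, and on 2 of them every T98G array was under the level of bacterial control probe sets. On its brightest probe set, 209318_x_at, PLAGL1 had log2 values of 9.84, 9.68 and 8.64 in U87MG, against 3.42, 3.45 and 3.73 in T98G. Every T98G value is under 4.03, the highest reading of 3 control probe sets for the bacterial TrpnX sequence, so the level in T98G has only an upper bound. With T98G values raised to that bound, the excess of PLAGL1 in U87MG was at least 40.8-fold. The means were 9.39 ± 0.65 in U87MG and 3.53 ± 0.17 in T98G (SD, n = 3 each), and the lines did not overlap.

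The other PLAGL1 probe sets showed the same order of the lines with smaller differences. Probe set 207002_s_at had PLAGL1 at 8.79, 9.04 and 8.13 in U87MG, against 3.43, 3.61 and 3.38 in T98G, at least 24.6-fold higher. Probe set 207943_x_at had 7.70, 8.38 and 7.14 in U87MG, against 3.42, 4.15 and 4.14 in T98G, at least 12.4-fold higher. On this one only 1 of 3 T98G arrays was under 4.03. In each of the 3 probe sets U87MG replicate 3 was the lowest U87MG array, with differences from the mean of the other two of -1.11, -0.78 and -0.90. That array also had the low poly-A controls, whose part in this was not tested, and without it the PLAGL1 difference was 6.23 in place of 5.86 on the log2 scale. All 3 identifiers end in _x_at or _s_at, which mark probes that can match more than 1 transcript, so no PLAGL1 value is left when such probe sets are set aside.

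HYMAI, the non-coding RNA that starts with PLAGL1 and lies within it, was higher in U87MG as well. Its probe set read 5.49, 5.94 and 5.61 in U87MG and 4.36, 4.24 and 4.27 in T98G, which is 2.62-fold higher (log2 1.39, SE 0.13, limma adjusted p = 2e-05). The 3 arrays of each line stood clear of each other. Because HYMAI overlaps PLAGL1, signal from the 2 transcripts cannot be told apart, and HYMAI had no value once only probe sets brighter than the median (7.63) in at least 1 line were kept. The 5 genes whose array profile lay nearest to PLAGL1, by the root mean square difference of centred log2 values over the 6 arrays, were MCTP1 (0.24), ABCA1 (0.38), AHNAK2 (0.39), HS3ST3A1 (0.39) and IL13RA2 (0.40). Their differences of 5.24 to 5.65 on the log2 scale follow from that choice. Because all 3 T98G values of PLAGL1 are under the control level, the distances and their order are approximate.

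NDN encodes necdin, a member of the MAGE protein family that restrains cell division in neurons, is expressed from the paternal copy and is lost in Prader-Willi syndrome. Its only probe set, 209550_at, had NDN at 8.99, 9.43 and 9.36 in U87MG, against 5.43, 5.79 and 6.40 in T98G. The difference was 10.5-fold (log2 3.39, SE 0.23), and every U87MG array stood above every T98G array. T98G varied more (SD 0.49) than U87MG (SD 0.23). PEG3, a paternally expressed zinc finger gene that takes part in p53-linked cell death, was at or near the control level in both lines on its own probe sets. Its probe set 209242_at read 4.15, 4.25 and 3.88 in U87MG, against 4.01, 3.92 and 4.03 in T98G, and 209243_s_at had all 6 arrays under 4.03, so no fold is given. Of the U87MG arrays on 209242_at, 2 were above that level. A probe set listed for ZIM2 and PEG3 together read 5.86 to 6.33 in U87MG and 5.86 to 6.04 in T98G.

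**Figure D2:**
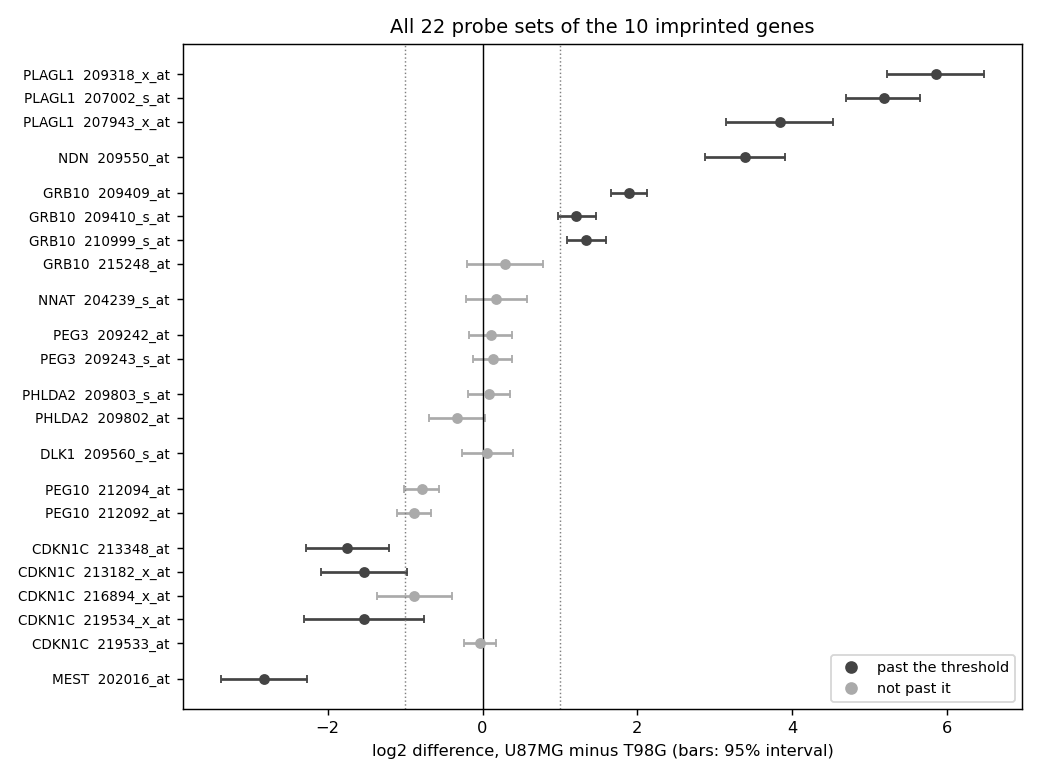
Log2 difference between U87MG and T98G, U87MG minus T98G, for all 22 probe sets, grouped by gene, with 95% intervals from limma (n = 3 arrays per line) and dotted lines at 2-fold. The 3 PLAGL1 probe sets lie between 3.84 and 5.86 as fitted, without the bound on T98G, and the 5 of CDKN1C spread from -1.75 to -0.03.

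CDKN1C, GRB10 and PHLDA2 are growth restrainers, of which CDKN1C was lower in U87MG, GRB10 was higher, and PHLDA2 was not past the threshold. CDKN1C encodes p57, an inhibitor of cyclin-dependent kinases that is expressed from the maternal copy. On probe set 213348_at CDKN1C had 5.42, 6.05 and 6.10 in U87MG, against 7.56, 7.22 and 8.04 in T98G. The lines did not overlap, and CDKN1C was 3.36-fold lower in U87MG (5.86 ± 0.38 against 7.61 ± 0.41, log2 -1.75, SE 0.24). Probe sets 213182_x_at and 219534_x_at both had -1.53 and were past the threshold. On 219534_x_at the U87MG arrays were uneven, at 6.45, 5.17 and 5.13, against 7.14, 6.72 and 7.48 in T98G. Probe set 216894_x_at had -0.88 (SE 0.21) and passed 2-fold without U87MG replicate 1 (-1.01) or T98G replicate 1 (-1.07). The fifth, 219533_at, was flat, at 5.27 to 5.32 in U87MG and 5.29 to 5.37 in T98G. With only brighter probe sets CDKN1C had no value, and the mean of its probe sets gave -1.14.

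GRB10 encodes an adaptor that binds the insulin and IGF1 receptors and damps their signal, and its imprint differs by tissue, paternal in brain and maternal in placenta. On 209409_at GRB10 read 11.10, 10.99 and 10.91 in U87MG, against 8.99, 9.18 and 9.14 in T98G, 3.72-fold higher (log2 1.89, SE 0.10). Replicates were tight in both lines, with an SD of 0.10 each. Probe sets 209410_s_at and 210999_s_at gave 1.21 and 1.34 and were past the threshold too. Probe set 215248_at gave 0.29 (95% interval -0.20 to 0.78), with U87MG at 6.82, 7.08 and 6.12 and T98G at 6.30, 6.45 and 6.41, so the lines overlapped there. The mean over its 4 probe sets was 1.18. PHLDA2, a pleckstrin homology protein that limits placental growth, did not separate the lines. Its brighter probe set, 209803_s_at, read 11.08, 11.25 and 10.89 in U87MG, against 11.07, 10.97 and 10.93 in T98G (log2 0.08, 95% interval -0.19 to 0.35). The dimmer one, 209802_at, had -0.33 (-0.69 to 0.03).

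MEST, PEG10, NNAT and DLK1 are expressed from the paternal copy. MEST, an enzyme-like protein of the alpha/beta hydrolase family expressed in embryonic mesoderm, had 10.03, 10.05 and 9.51 in U87MG, against 12.19, 13.18 and 12.68 in T98G. MEST was thus 7.07-fold lower in U87MG (log2 -2.82, SE 0.24), with every U87MG array below every T98G array. PEG10, a gene derived from a retrotransposon and needed for the placenta, was lower in U87MG by a small and even amount. Its probe set 212094_at read 11.34, 11.52 and 11.51 in U87MG, against 12.27, 12.20 and 12.24 in T98G (log2 -0.78, SE 0.10), and 212092_at gave -0.88. Both fell short of the 2-fold minimum although the lines did not overlap on either. NNAT, a small membrane protein of developing neurons, read 6.07, 6.10 and 6.74 in U87MG, against 6.05, 6.09 and 6.22 in T98G (log2 0.18, 95% interval -0.21 to 0.58). Without U87MG replicate 3 its difference was -0.03. DLK1, a membrane protein related to Notch ligands, read 4.04, 4.59 and 4.34 in U87MG, against 4.17, 4.23 and 4.39 in T98G, just above the control level in both lines (log2 0.06, -0.27 to 0.39).

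To see whether whole loci moved with the members, the 2 nearest measured genes on each side were taken in RefSeq gene order, 38 genes in all, of which 15 are on the list of other imprinted genes described below. Of the 38, 2 were higher and 2 lower in U87MG (10.5%), where 13.6% of all genes were called by limma, each gene represented by its probe set with the highest mean. Beside PLAGL1 on chromosome 6, HYMAI was higher as given above, while PEX3 had 0.19, SF3B5 0.58 and PHACTR2 -0.66, with none of these 3 past the threshold. Beside PEG10 on chromosome 7, both genes on one side were lower. SGCE, a sarcoglycan gene that shares the imprinted promoter region of PEG10, was 2.11-fold lower (10.79, 10.72 and 10.27 in U87MG, against 11.66, 11.57 and 11.79 in T98G, limma adjusted p = 0.000254). CASD1, which acetylates sialic acids, was 2.14-fold lower (adjusted p = 3.55e-05). SGCE no longer passed 2-fold when U87MG replicate 3 was left out (log2 -0.92), the array with the low poly-A controls. PPP1R9A and PON1, on the other side, had 0.00 and 0.07.

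Next to DLK1 on chromosome 14, BEGAIN, a protein of neuronal synapses, was 5.53-fold higher in U87MG (8.67, 8.79 and 8.72, against 6.09, 6.12 and 6.56 in T98G, limma adjusted p = 5.33e-07), although DLK1 itself had 0.06. The BEGAIN probe set is multiply matching. WDR25, beyond BEGAIN, had 0.92 and passed 2-fold without U87MG replicate 2 (1.01), and MEG3, the maternally expressed non-coding RNA on the other side of DLK1, had -0.63. Around NDN on chromosome 15 none of the 4 neighbours passed the threshold, MKRN3 having 0.16 (95% interval -0.08 to 0.41), NPAP1 -0.05, MAGEL2 0.08 and PWAR5 0.11. MAGEL2 was at 3.91 to 4.05 in U87MG and 3.82 to 3.94 in T98G, about the control level, and PWAR5 was under it on all 6 arrays. A lower level could not show there, and neither gene rose clear of the control level in U87MG. Probe sets that list several genes were left out of the neighbours, and those listing SNURF and SNRPN together, on the same chromosome, had 3.65 and 2.93 with U87MG higher. The genes around MEST had -0.04 to 0.12, and those around GRB10 had -0.06 to 0.06 but for EGFR, at -0.64 and not called. KCNQ1OT1, the non-coding RNA that silences CDKN1C on the paternal copy, had 0.07 (-0.18 to 0.33) at levels of 4.47 to 4.82 over both lines. KCNQ1DN, on the same side of CDKN1C, had -0.02. On the other side SLC67A1-AS and SLC67A1 had -0.43 and -0.37, the same direction as CDKN1C, and neither was called. The neighbours of PEG3 (-0.25 to 0.03), NNAT (-0.38 to 0.29) and PHLDA2 (-0.43 to 0.52) were not called either.

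**Figure D3:**
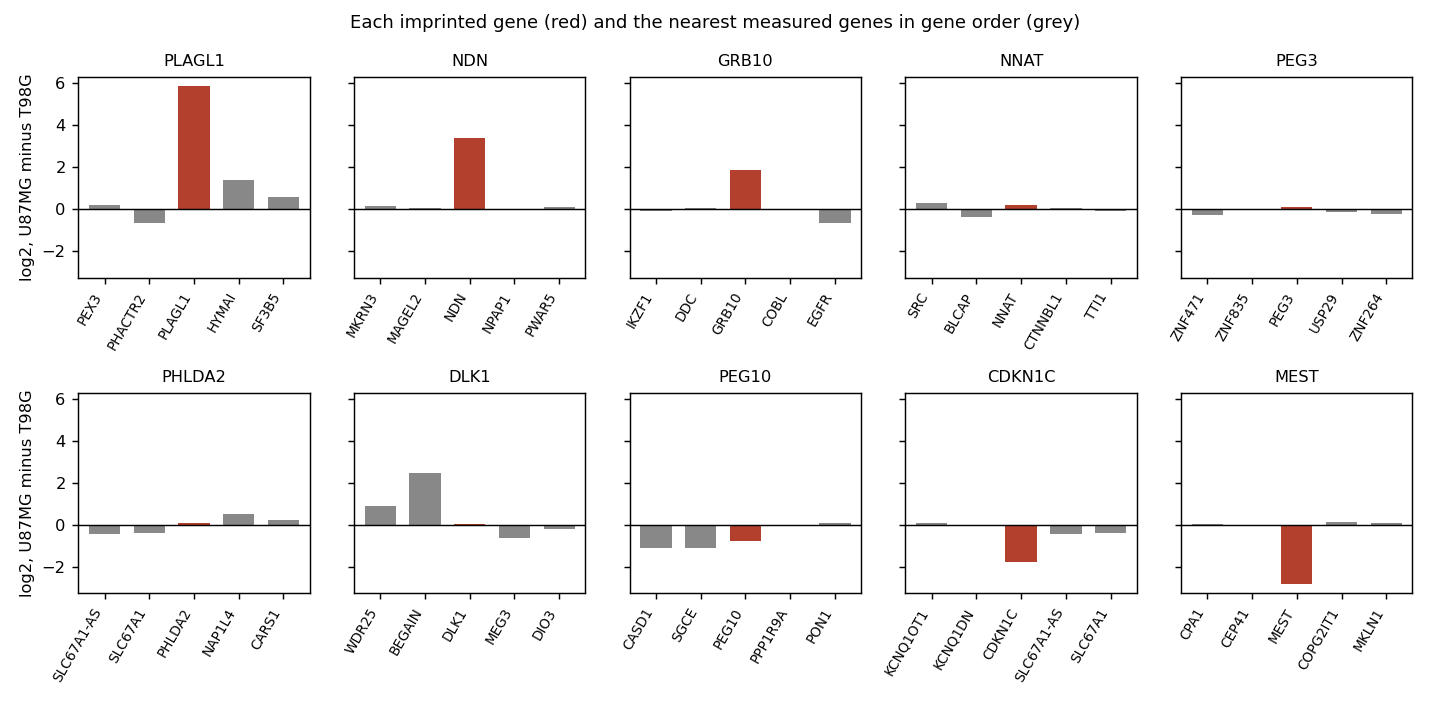
Log2 difference, U87MG minus T98G, of each imprinted gene (red) and of the 2 nearest measured genes on each side in gene order (grey), 1 probe set per gene. BEGAIN beside DLK1 reaches 2.47 and HYMAI beside PLAGL1 1.39, while SGCE and CASD1 beside PEG10 have -1.08 and -1.10.

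Among other imprinted genes, 39 of 60 listed were measured, and 3 were higher, 2 lower and 34 neither in U87MG (12.8% called, median difference -0.03, against 13.6% and -0.01 over all genes). SNRPN, SNURF, IGF2 and ZIM2 are on the list but outside this count, because their probe sets list several genes. On these, SNURF and SNRPN together had 3.65 and 2.93, and SNRPN with IPW and small nucleolar RNAs had 3.35, 1.69 and 0.25. IGF2 with INS-IGF2 had -2.01, -0.36 and -0.23, and ZIM2 with PEG3 had 0.05. DIRAS3, a RAS-like growth suppressor expressed from the paternal copy, had 8.78, 9.23 and 9.03 in U87MG, against 4.03, 3.89 and 4.43 in T98G, at least 28.8-fold higher (limma adjusted p = 2.01e-08). As with PLAGL1, T98G lay about the control level, with 2 of 3 arrays under it, and the DIRAS3 probe set is multiply matching too. TFPI2, an inhibitor of serine proteases, was 3.79-fold higher on one probe set (13.99, 13.87 and 13.65 in U87MG, against 11.87, 11.93 and 11.93 in T98G, adjusted p = 8.26e-07) and log2 2.29 on the other. In the other direction ZNF331, a zinc finger gene, had 4.33, 4.77 and 5.21 in U87MG, against 8.97, 9.15 and 9.20 in T98G, 20.3-fold lower (adjusted p = 1.17e-07). HYMAI and SGCE, given above, were the remaining called genes. FAM50B, at 0.88, was past 2-fold without U87MG replicate 3 (1.06), and WT1, at -0.74, passed it in the other direction without the same array, with -2.94 on its other probe set.

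Of 20 genes that set, keep or read imprints, 11 were measured, and 0 were higher, 1 lower and 10 neither (9.09% called, median -0.36, against 13.6% and -0.01 over all genes). The limma adjusted p was under 0.05 for 6 of the 10 not called, and likewise for 3318 of the 10339 not called over all genes. ARID4B, a chromatin protein linked in the mouse to the Prader-Willi imprint, was 2.10-fold lower (8.87, 9.22 and 8.66 in U87MG, against 9.86, 9.92 and 10.18 in T98G, adjusted p = 0.000363). Its other probe set had 0.04, and it fell short of 2-fold without U87MG replicate 3 (-0.94) or without T98G replicate 3 (-0.97). EHMT2, a histone methyltransferase, had -0.98 and passed 2-fold without U87MG replicate 1 (-1.04), without T98G replicate 1 (-1.04) and also without U87MG replicate 3. TRIM28, which ZFP57 recruits to imprinted loci, had -0.60 (-0.89 to -0.30). DNMT1, the methyltransferase that copies methylation at cell division, had 0.24 (0.01 to 0.48), with an adjusted p of 0.0955 by limma.

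Of 8 genes listed as known targets of PLAGL1 outside the 10 genes, 6 were measured. Of these, 1 was higher, 0 lower and 5 neither (16.7% called, median -0.07, near the 13.6% called over all genes). IGF2 is on this list too but was not counted, because its probe sets also list INS-IGF2. They had -2.01, -0.36 and -0.23. PPARG, a nuclear receptor of fat cell formation, was 4.11-fold higher in U87MG (7.21 ± 0.38 in U87MG and 5.17 ± 0.32 in T98G, SD, n = 3 each, limma adjusted p = 3.84e-05). Its probe set is multiply matching and under the brightness filter, and it had no value under either alternative. CDKN1C, a member that PLAGL1 regulates in the mouse, was lower in U87MG as given above, and APAF1 and TCF4 had -0.58 and -0.72, with APAF1 past the threshold on another probe set (-1.11).

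Paralogs and partners of the members numbered 20 measured of 21, with 5 higher, 1 lower and 14 neither in U87MG. That is 30% called with a median of 0.20, against 13.6% called, 6.56% higher and 7.01% lower, over all genes. Nothing is read from this share, since the list was chosen with earlier results of these data known. GRB14, a paralog of GRB10 that also binds the insulin receptor, had 7.48, 7.82 and 7.21 in U87MG, against 4.12, 3.74 and 3.62 in T98G, at least 10.9-fold higher (limma adjusted p = 1.93e-07). PLAG1, a growth-promoting paralog of PLAGL1, had 7.47, 6.57 and 6.53 in U87MG, against 4.66, 4.43 and 4.61 in T98G, 4.91-fold higher (adjusted p = 2.92e-05), while the third paralog PLAGL2 had -0.15. CDKN1A, the p21 relative of CDKN1C, was 5.69-fold higher where CDKN1C was lower, and CDKN1B, the third of that family, had -0.81. PHLDA3, a paralog of PHLDA2 that restrains AKT, was 2.31-fold higher (adjusted p = 0.000107). With only brighter probe sets GRB14 and PLAG1 had no value, and CDKN1A had none without multiply matching probe sets.

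The receptors that GRB10 binds differed in opposite directions on their brightest probe sets. INSR, the insulin receptor, had 8.26, 8.38 and 7.51 in U87MG, against 6.57, 6.51 and 6.80 in T98G, 2.68-fold higher (limma adjusted p = 0.000424), and 0.21 on its other probe set. IGF1R had 7.31, 7.83 and 6.04 in U87MG, against 8.65, 8.72 and 8.60 in T98G, 3.02-fold lower (limma adjusted p = 0.00566). Of its 3 probe sets (-1.59 to 0.21), 2 were past the threshold with U87MG lower. U87MG replicate 3 was the lowest U87MG array for both receptors on these brightest probe sets. Neither receptor was called on the mean of its probe sets (0.81 for INSR and -0.99 for IGF1R).

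**Figure D4:**
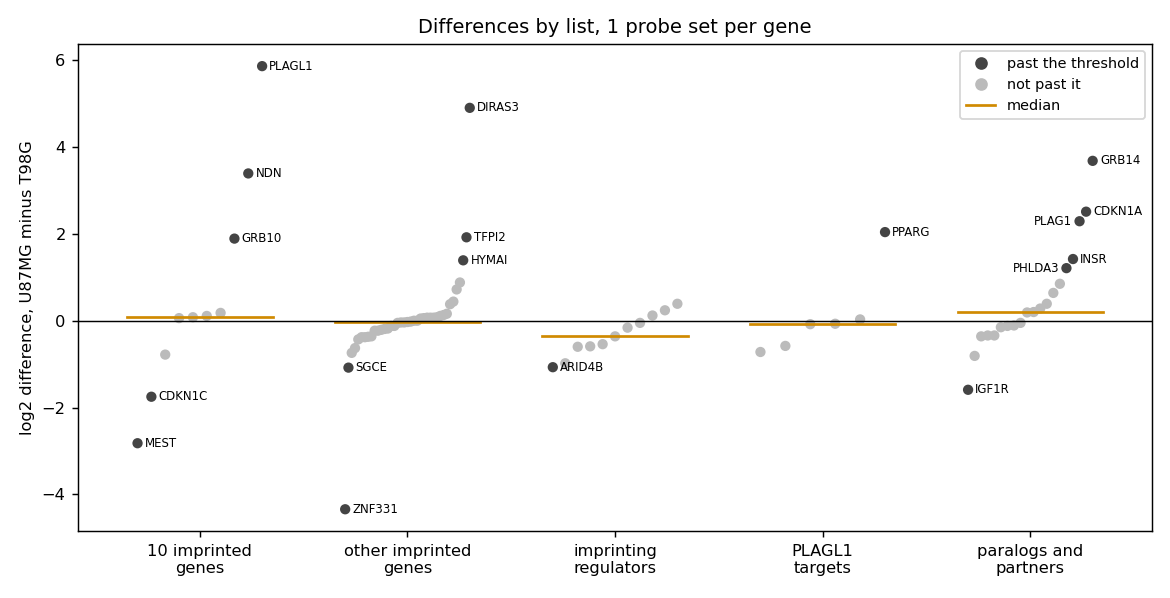
Log2 difference, U87MG minus T98G, of the 10 imprinted genes and of 4 gene lists, 1 probe set per gene, with genes past the threshold in dark grey and named, others in light grey, and the median of each list in orange. PLAGL1 at 5.86 and DIRAS3 at 4.90 are the highest points as fitted, and ZNF331 at -4.34 is the lowest.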

How the data were processed

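Transcript levels were measured on 6 arrays, 3 per line. The values the authors deposited are on a log2 scale. Their tools were RMA and limma, per the submitters' processing notes, and versions are not given in the sources used here. As background, RMA equalises the distributions of arrays, which can hide a difference in total RNA and compresses differences of dim transcripts. Array medians were 7.55 to 7.65, and 0 pairs of arrays held identical values. With so few arrays their number limits the precision.

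The arrays hold 22277 probe sets, 62 of them controls. The platform annotation (2016) lists 1 gene for 19064, several for 1043 and none for 2108. Current symbols came by Entrez number from the RefSeq table of GRCh38.p14, which matched 19052. SLC22A18, SLC22A18AS and GPR1 were looked up under their current symbols, SLC67A1, SLC67A1-AS and CMKLR2. Members were fitted with all 22215 other probe sets, and lists with 1 probe set for each of 11963 genes, by limma 3.58.1 in R 4.3.3 (lmFit, eBayes, two-sided). Calls needed a Benjamini-Hochberg adjusted p under 0.05 and a 2-fold difference. The steps were tested on simulated data. Named genes were all members, up to 5 called genes per direction of each list (where none was called, the 2 with the smallest p), all called neighbours and the 5 profiles nearest to PLAGL1. Other genes are named for context after their values were seen. The members and lists were chosen with earlier results of these data known.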

Additional observations from a re-analysis of the deposited data

How the results depend on the processing

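Counts of genes or probe sets past the threshold were 11 of 22 member probe sets, 4 neighbours, 5 other imprinted genes, 1 imprinting regulator, 1 PLAGL1 target and 6 paralogs and partners. With the adjusted p alone they became 11 neighbours, 14 other imprinted genes, 7 regulators, 3 targets and 11 paralogs and partners. Over all 11963 genes, 1624 were past the threshold, and a further 3318 had an adjusted p under 0.05 alone, so the rise is general. Shares over all genes are not given for the other settings, so nothing is read from the counts under them. Under limma's treat against 2-fold they became 6 member probe sets, 1 neighbour, 3 other imprinted genes, 0 regulators (0 at an unadjusted treat p under 0.05) and 3 paralogs and partners. Without multiply matching probe sets, there were 4 of 10 member probe sets, 0 of 7 regulators (limma, 5 at an unadjusted p under 0.05) and 0 of 4 targets (1). Averaging over the probe sets of each gene gave 0 regulators (limma, 8), and the filter on dim probe sets, which kept means over 7.63 in at least 1 line, left 1 target and 0 calls (limma, 1). Leaving out 1 array gave 11 to 12 member probe sets, 5 member genes each time, 3 to 5 neighbours, 5 to 6 other imprinted genes, 0 to 2 regulators (6 at an unadjusted p under 0.05 by limma where 0), 1 target and 6 paralogs and partners. Centring again, quantile normalization again and a trended robust variance changed none of these counts. The sign of no called member turned under the alternatives run. Of the member differences, 5 moved by more than the spread between replicates, all by the probe sets used. The labels do not say whether equal replicate numbers mark a shared day. Deviations of same-numbered arrays correlated at 0.154, 0.068 and 0.045, which cannot settle it. With a replicate block the counts stayed at 11 member probe sets, 5 member genes and 4 neighbours. The block also kept 5 other imprinted genes, 1 regulator, 1 target and 6 paralogs and partners.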

Other observations

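Some probe sets list several genes and were named for none in the lists. A probe set listed for SNURF and SNRPN together, which share 1 imprinted transcript on the chromosome that also holds NDN, had 10.22, 10.30 and 10.26 in U87MG, against 6.70, 6.43 and 6.72 in T98G. A second such probe set had 9.47, 9.02 and 9.12 in U87MG, against 6.16, 6.20 and 6.46 in T98G. The U87MG arrays lay above the T98G arrays on both, as they did for NDN. MKRN3 and MAGEL2 of the same region had differences of 0.16 and 0.08, with MAGEL2 about the control level in both lines. A probe set listed for SNRPN with IPW and small nucleolar RNAs of that region had 6.90, 6.90 and 6.74 in U87MG, against 3.32, 3.37 and 3.78 in T98G. A second had 6.66, 6.81 and 6.58 in U87MG, against 5.12, 5.02 and 4.83 in T98G. Another, which lists SNURF as well, had 4.79 ± 0.26 in U87MG, against 4.53 ± 0.15 in T98G (SD, n = 3 each), and there the lines overlapped.

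The imprinted growth factor gene IGF2 is listed only beside INS-IGF2, on 3 probe sets. One of them had 5.93 ± 0.09 in U87MG, against 7.94 ± 0.07 in T98G (SD, n = 3 each), a log2 difference of -2.01, and the others had -0.36 and -0.23. The probe set listed for ZIM2 and PEG3 together had 5.86, 5.87 and 6.33 in U87MG, against 6.04, 5.86 and 6.03 in T98G, and the lines overlapped. They are shown here with their values known, and no test was made on them.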
